A study of Mus musculus with 24 samples.

Results

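The comparison of female Fkbp5Nex mice with female Fkbp5lox/lox mice after early life stress (ELS) was examined across all genes measured in hippocampal tissue. The 12 mice were taken by the labels of their columns in the deposited count table, 6 Fkbp5Nex ELS and 6 Fkbp5lox/lox ELS, out of 24 mice in the series. The other 12 mice, 6 of each genotype, were reared under control conditions and were used for the shared estimate of spread and for the test of whether the deletion effect depended on rearing. Fkbp5lox/lox mice carry loxP-flanked Fkbp5 alleles and no Cre recombinase. Fkbp5Nex mice carry the same floxed alleles and Nex-Cre, whose recombinase is expressed from the Nex locus (current symbol Neurod6), so that all mice of the series shared the floxed background and only the Fkbp5Nex mice also carried the driver. Per the study's methods, the driver acts from embryonic development in glutamatergic neurons of the forebrain, the hippocampus included, but not in the dentate gyrus. ELS litters lived with limited bedding and nesting material from postnatal day 2 to day 9, behavioural testing began at 6 months of age, and mRNA was sequenced from 1 mm punches of dorsal and ventral hippocampus that had been combined.

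Fkbp5 encodes FKBP51, an immunophilin that binds the chaperone HSP90 and lowers the sensitivity of the glucocorticoid receptor (Nr3c1) to its hormone. Glucocorticoids in turn induce Fkbp5, which closes a short negative feedback loop on the stress response. In the hippocampus, where Nr3c1 and the mineralocorticoid receptor (Nr3c2) are both abundant, this loop is one of the routes by which earlier stress can alter later hormone responses.

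Between 18347283 and 26555623 reads per ELS mouse were counted on genes, with medians of 21510561 in Fkbp5lox/lox ELS mice and 20205006 in Fkbp5Nex ELS mice, and 22873 to 23949 genes had at least 1 count. Expression is given as CPM (counts per 1e+06 reads counted) after TMM scaling. Markers of forebrain neurons at large were at similar levels in all 12 mice, with sums of 5909 to 8245 CPM for the 10 pan-glutamatergic markers and 1575 to 2107 CPM for the 14 interneuron markers. Markers of hippocampal subfields were present in each mouse at uneven levels, with sums of 138 to 730 CPM for CA1 and 366 to 1668 CPM for the dentate gyrus. The 17 thalamus markers tested summed to 194 to 681 CPM and the 10 choroid plexus markers tested to 105 to 2310 CPM, with overlapping ranges in both genotypes. In bulk tissue, fewer cells of a type and less RNA per cell cannot be told apart.

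The promoters of Fkbp5, Neurod6 and Gm3279 are shown from RefSeq on GRCm38.p6, each from 250 bases before to 50 bases after its annotated start. These 3 genes are the deleted gene, the gene whose locus carries the driver, and the noncoding neighbour of that locus. Fkbp5 and Gm3279 were called as different after ELS, and Neurod6 was not. The RefSeq start of Fkbp5 lies inside the longer span given for the gene below, which is from GENCODE vM21. Capitals mark each CANNTG, the E-box bound by basic helix-loop-helix factors such as NEUROD6 and TCF4, which reads the same on both strands. Of 32851 promoters of this length, 72.3% held at least 1 such match. The window of Fkbp5 (chr17:28486100-28486399, minus strand) and that of Neurod6 (chr6:55681214-55681513, minus strand) held 2 matches each. The window of Gm3279 (chr6:55684321-55684620, plus strand) held 0.
Fkbp5: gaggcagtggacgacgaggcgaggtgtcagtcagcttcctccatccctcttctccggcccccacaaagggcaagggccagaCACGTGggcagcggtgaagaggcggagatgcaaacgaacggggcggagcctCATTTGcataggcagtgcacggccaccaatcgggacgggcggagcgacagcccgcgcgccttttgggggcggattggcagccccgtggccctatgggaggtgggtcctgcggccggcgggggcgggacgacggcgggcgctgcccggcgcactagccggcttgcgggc
Neurod6: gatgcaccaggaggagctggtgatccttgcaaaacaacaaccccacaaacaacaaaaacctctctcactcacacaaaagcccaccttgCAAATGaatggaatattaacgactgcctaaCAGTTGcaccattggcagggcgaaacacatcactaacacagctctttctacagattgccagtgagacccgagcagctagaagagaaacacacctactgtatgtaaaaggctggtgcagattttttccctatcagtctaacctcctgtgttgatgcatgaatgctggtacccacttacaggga
Gm3279: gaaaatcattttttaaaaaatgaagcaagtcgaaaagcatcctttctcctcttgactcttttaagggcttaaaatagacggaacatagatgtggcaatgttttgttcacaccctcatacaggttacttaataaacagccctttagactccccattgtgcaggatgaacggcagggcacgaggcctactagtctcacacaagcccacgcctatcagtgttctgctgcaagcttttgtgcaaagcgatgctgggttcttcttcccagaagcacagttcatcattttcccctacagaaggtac

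Fkbp5 (ENSMUSG00000024222, chromosome 17, 28399094 to 28517527, minus strand, GRCm38) separated the genotypes in every ELS mouse. Its expression in Fkbp5lox/lox ELS mice was 56.4 CPM at the lowest, 58.8 at the median and 62.2 at the highest, from 1079 to 1602 reads. In Fkbp5Nex ELS mice it was 10.0, 12.0 and 23.1 CPM, from 209 to 453 reads. The groups did not overlap, and the mean fell from 59.4 ± 2.29 CPM to 13.9 ± 5.0 CPM (SD, n = 6 each), which is 23.4% of the Fkbp5lox/lox level. The log2 fold change was -2.02 (SE 0.14, adjusted p = 1.01e-08 by the quasi-likelihood test of edgeR, adjusted after Benjamini and Hochberg, as for every adjusted p unless another tool is named). The difference of mean log2 CPM, computed without any covariate, was -2.15 (exact 2-sided permutation p = 0.00216, the smallest that 6 against 6 mice can give). Transcript remained in all 6 Fkbp5Nex mice, and its highest value was more than 2 times the lowest. That highest value, 23.1 CPM, was in mouse 60, which also had the highest sum of dentate markers in its group (875 CPM). The punches also held cells outside the range of the driver, and the share of the remaining reads that came from them was not tested.

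**Figure D1:**
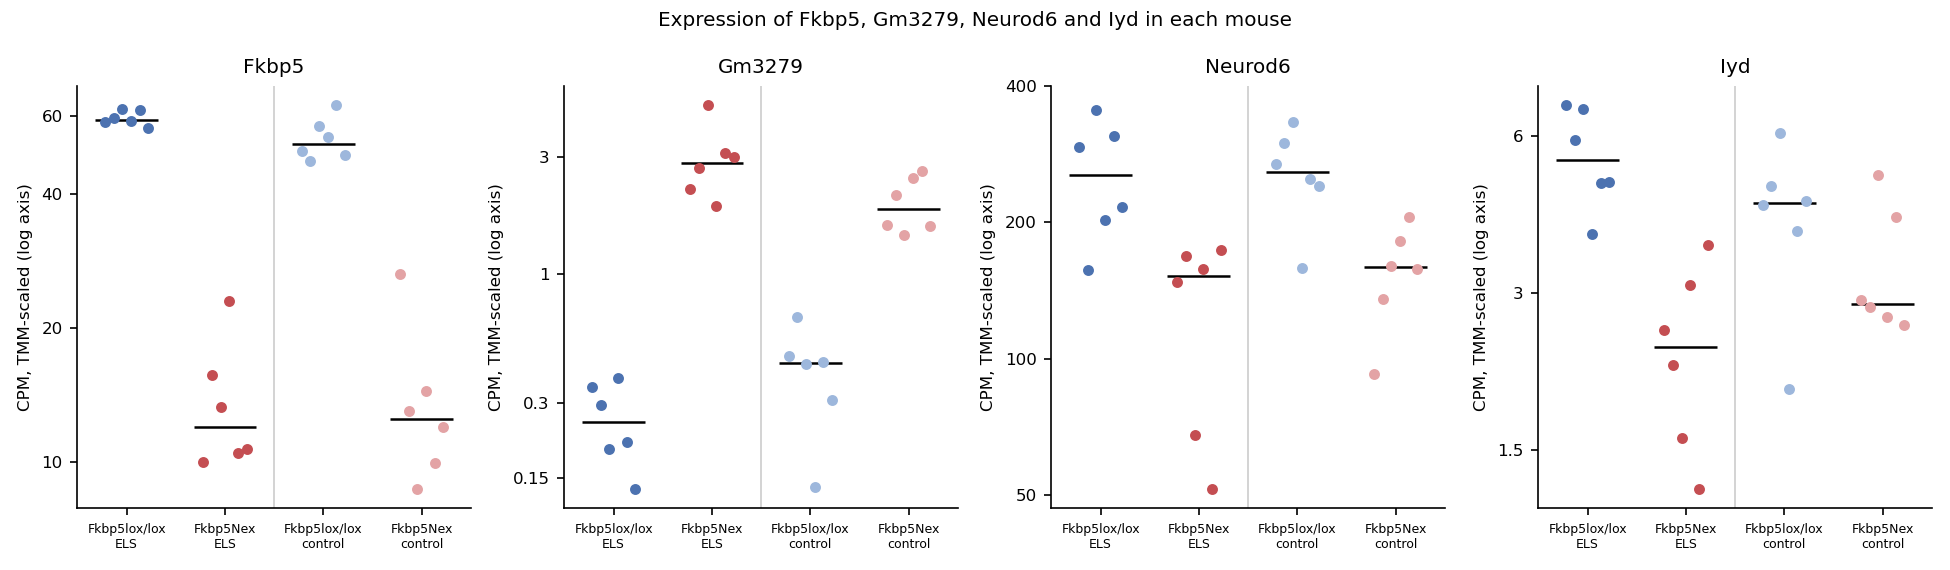
Expression of Fkbp5, Gm3279, Neurod6 and Iyd in each of the 24 mice, in CPM on a log axis; each point is a mouse, the black bar is the median of 6 mice, and the grey line separates ELS from control mice. Among ELS mice the genotypes do not overlap for Fkbp5 (56.4 to 62.2 against 10.0 to 23.1 CPM), Gm3279 (0.135 to 0.378 against 1.89 to 4.85 CPM) and Iyd (3.89 to 6.86 against 1.26 to 3.70 CPM), but do for Neurod6.

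The only other gene called was Gm3279, a long intergenic noncoding RNA beside the driver locus, and it was higher. Of 16209 genes tested, these 2 (0.0123%) passed a false discovery rate (FDR) of 0.02, 1 in each direction (0.00617% each). Gm3279 (ENSMUSG00000108063, chromosome 6, 55684571 to 55694574, plus strand) starts 3308 bases from the start of Neurod6 and runs away from it. In Fkbp5lox/lox ELS mice it was near the detection limit, at 0.135, 0.252 and 0.378 CPM (lowest, median, highest), which were 3 to 8 reads. In Fkbp5Nex ELS mice it had 1.89, 2.84 and 4.85 CPM, from 37 to 104 reads. Every Fkbp5Nex mouse therefore lay above every Fkbp5lox/lox mouse, with a log2 fold change of 3.41 (SE 0.31, adjusted p = 1.82e-06 in the same test; exact permutation p = 0.00216). The annotated transcript has 3 exons, of 46, 79 and 967 bases. The first (chr6:55684571-55684616) and second (chr6:55688176-55688254), in GENCODE vM21 on GRCm38, are shown because this transcript carries the single increase past the threshold.
Gm3279 exon 1: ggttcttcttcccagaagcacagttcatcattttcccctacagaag
Gm3279 exon 2: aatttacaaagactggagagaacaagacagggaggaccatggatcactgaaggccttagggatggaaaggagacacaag

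Neurod6 (ENSMUSG00000037984, chromosome 6, 55677822 to 55681263, minus strand) encodes the basic helix-loop-helix factor of pyramidal neurons whose locus holds the Cre gene. It had 157, 255 and 355 CPM (lowest, median, highest) in Fkbp5lox/lox ELS mice and 51.6, 153 and 174 CPM in Fkbp5Nex ELS mice. Of the 6 Fkbp5Nex mice, 3 lay below the lowest Fkbp5lox/lox mouse and all 6 below the Fkbp5lox/lox mean, and the mean was 50.0% of the Fkbp5lox/lox mean. Its log2 fold change of -1.08 (SE 0.22) did not pass (adjusted p = 0.281), while the exact permutation p of this gene alone was 0.00866. Other glutamatergic markers had smaller values. Slc17a7, the vesicular glutamate transporter of forebrain excitatory neurons, had a log2 fold change of -0.03 (SE 0.06), which turned to 0.02 in a fit without surrogate variables (covariates for variation between mice beyond the groups), Neurod2 one of -0.26 (SE 0.11) and Nrgn, a calmodulin-binding postsynaptic protein, one of 0.13 (SE 0.06), and the median over the 10 markers was 0.06.

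Genes around the driver locus were taken up to 1 Mb on either side of Neurod6. Of 29 annotated genes there, 14 were tested, 1 passed the FDR (Gm3279) and 8 had an unadjusted p below 0.05, against 6.59% of all genes tested. In the positive direction these were Gm3279, the noncoding RNA 6430584L05Rik (0.59, SE 0.20), Nod1, a cytosolic receptor for bacterial peptidoglycan (0.59, SE 0.15), and Mturn (0.12, SE 0.05). In the negative direction they were Neurod6, Itprid1 (-0.65, SE 0.21), Pde1c, a calmodulin-dependent phosphodiesterase (-0.46, SE 0.16), and Mindy4 (-0.21, SE 0.07). Without surrogate variables Itprid1 was at -0.34, 6430584L05Rik at 0.33, and 5 of the 14 genes had an unadjusted p below 0.05, against 725 of all 16209 genes. Nod1 had 5.25, 5.85 and 6.75 CPM in Fkbp5lox/lox ELS mice and 6.07, 8.49 and 13.3 CPM in Fkbp5Nex ELS mice, in which 5 of 6 mice exceeded the highest Fkbp5lox/lox mouse (adjusted p = 0.591). The genotype carries the driver together with the deletion, so the contributions of both, and of chromosome 6 sequence linked to the driver, cannot be told apart in these groups.

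Across all genes the differences were small. The median log2 fold change over 16209 genes was 0.00 (7923 positive and 8286 negative), the median standard error was 0.08, and 1068 genes (6.59%) had an unadjusted p below 0.05, of which 475 (2.93%) were higher and 593 (3.66%) lower in Fkbp5Nex ELS mice. For 15801 genes (97.5%) the fold change with 2 standard errors on either side stayed within -1 and 1 on the log2 scale, and for 12907 genes (79.6%) within -0.5 and 0.5. In the fit with surrogate variables, a change of 2-fold in either direction was therefore outside the interval for most genes tested. Smaller ones could lie within it at this depth and group size. Without surrogate variables the standard error was larger for some genes (0.38 against 0.09 for Prox1) and similar for others (0.14 in both for Hk2). The intervals were not counted for that fit.

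**Figure D2:**
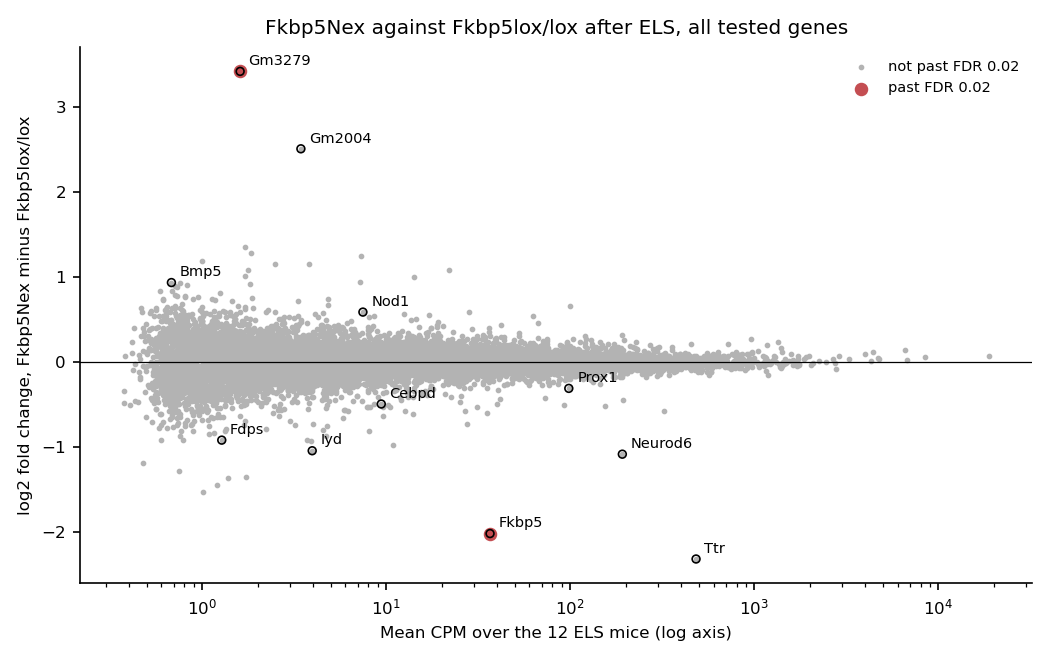
Log2 fold change of Fkbp5Nex against Fkbp5lox/lox mice after ELS for the 16209 genes tested (vertical axis) against their mean CPM over the 12 ELS mice (horizontal log axis). The 2 red points, Gm3279 at 3.41 and Fkbp5 at -2.02, passed an FDR of 0.02; Ttr at -2.31 and Gm2004 at 2.5 lie as far from 0 and did not.

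Of the 10 genes with the smallest p among those with lower values in Fkbp5Nex ELS mice, 9 did not pass. Iyd (ENSMUSG00000019762, chromosome 10, 3540240 to 3554877), the deiodinase that recovers iodide from iodotyrosines and a gene of the CA2 and CA3 marker list, came closest. It had 3.89, 5.39 and 6.86 CPM (72 to 159 reads) in Fkbp5lox/lox ELS mice and 1.26, 2.37 and 3.70 CPM (26 to 72 reads) in Fkbp5Nex ELS mice. The groups did not overlap, and the log2 fold change was -1.04 (SE 0.20, adjusted p = 0.199; exact permutation p = 0.00216). In DESeq2's Wald test, with the same covariates, Iyd passed (adjusted p = 0.00225). The other 11 CA2 and CA3 markers had log2 fold changes between -0.15 and 0.32, none with an unadjusted p below 0.05.

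Cebpd, a transcription factor induced by glucocorticoids and inflammation, had 7.96, 11.1 and 19.7 CPM in Fkbp5lox/lox ELS mice and 5.60, 6.06 and 10.8 CPM in Fkbp5Nex ELS mice. In 5 of the 6 Fkbp5Nex mice it was below every Fkbp5lox/lox mouse (log2 fold change -0.49, SE 0.11, adjusted p = 0.363; -0.82 without surrogate variables). Mouse 8 (Fkbp5lox/lox) and mouse 60 (Fkbp5Nex), which held its highest value in their groups, also held the highest dentate marker score. Chst15, a chondroitin sulphate sulphotransferase, had a log2 fold change of -0.33 (SE 0.07, adjusted p = 0.325). Slc16a10, a transporter of aromatic amino acids and thyroid hormone, had 3.04, 4.72 and 6.59 CPM against 2.21, 2.63 and 3.62 CPM, with a log2 fold change of -0.55 (SE 0.13). The glycosyltransferase-domain gene Glt8d2 (-0.50, SE 0.12) and the zinc finger factor Rreb1 (-0.45, SE 0.11) were of similar size, and each overlapped between groups. Armc8, a subunit of the CTLH ubiquitin ligase, had a small difference with little spread, at 91.7, 95 and 98.6 CPM against 83.0, 85.7 and 88.6 CPM (-0.14, SE 0.03). Adjusted p was 0.591 for each of Slc16a10, Glt8d2, Rreb1, Armc8 and Mllt3. For Mllt3, a chromatin reader of the super elongation complex, the fitted value of -0.19 (SE 0.04) rested on the surrogate variables, since the difference of mean log2 CPM without them was -0.01 (exact permutation p = 0.961).

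Among the 10 genes with the smallest p in the positive direction, Gm3279 alone passed. Gm2004, a predicted protein-coding gene, had 0.270, 1.24 and 4.26 CPM in Fkbp5lox/lox ELS mice and 1.12, 4.36 and 11.5 CPM in Fkbp5Nex ELS mice (log2 fold change 2.5, SE 0.54, adjusted p = 0.325), and reads from similar copies could be shared with it. It passed in DESeq2's Wald test (adjusted p = 0.00990) and with mice 8 and 60 left out together (adjusted p = 0.0154, edgeR). Htr2a, the serotonin 2A receptor, had 5.66, 6.18 and 8.76 CPM against 8.11, 10.3 and 12.5 CPM. Of the 6 Fkbp5Nex mice, 5 exceeded the highest Fkbp5lox/lox mouse, with a log2 fold change of 0.55 (SE 0.14, adjusted p = 0.591). Grem1, a secreted BMP antagonist, had 1.0, 3.45 and 4.06 CPM against 3.77, 6.41 and 7.10 CPM (0.57, SE 0.15; 0.96 without surrogate variables), and Bmp5, a BMP ligand, had 0.351, 0.453 and 0.703 CPM against 0.466, 0.861 and 1.12 CPM (0.93, SE 0.24). Bmp5 rested on 7 to 23 reads per mouse. Sesn3, a sestrin of the cellular stress response, had 18, 19.5 and 25.2 CPM against 23.4, 25.5 and 26.8 CPM (0.36, SE 0.09). Rassf2, Cadm4 and the processed pseudogene Snrpert had log2 fold changes of 0.23 (SE 0.06), 0.18 (SE 0.05) and 1.15 (SE 0.31). Adjusted p was 0.591 for each of these genes, from Htr2a to Snrpert.

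In 28 of 16209 genes (0.173%) the CPM of the 6 Fkbp5Nex ELS mice lay wholly above (12 genes, 0.074%) or wholly below (16 genes, 0.0987%) those of the 6 Fkbp5lox/lox ELS mice. Under a random division of 12 mice into 6 and 6, a gene separates wholly with a probability of 0.00216. The share found did not exceed this, so separation alone does not mark a gene as changed. Of these 28 genes, 25 had an unadjusted p below 0.05 in the fit with surrogate variables. The genes were chosen by their separation in the same 12 mice, so these p-values add no support. In control mice 21 of the 28, Fkbp5 and Gm3279 among them, had the same sign, and the matching share over all genes was not computed. Besides Fkbp5, Gm3279, Iyd and Armc8, the genes with the smallest p were 1700126G02Rik, Hk2 and Alg13, which were named here after their values were seen. Hk2, a hexokinase, had 8.70, 9.58 and 10.9 CPM against 4.33, 6.63 and 8.36 CPM (-0.53, SE 0.14). Alg13, an enzyme of N-glycan assembly, had 8.46, 9.50 and 9.81 CPM against 6.17, 7.80 and 8.35 CPM (-0.32, SE 0.09), and Sstr4, a somatostatin receptor, had 13, 15.7 and 19.8 CPM against 20.7, 21.8 and 23.9 CPM (0.41, SE 0.12). Adjusted p was 0.591 for each of the 4 genes from 1700126G02Rik to Sstr4.

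The partners of FKBP51 were at similar levels in both genotypes. Of 32 FKBP immunophilins, HSP90 co-chaperones and heat shock proteins, all of them tested, Fkbp5 itself was the 1 member that passed. The median log2 fold change was -0.02, or 0.01 without surrogate variables, and besides Fkbp5 the values lay between -0.18 and 0.16. Fkbpl, an HSP90-binding FKBP-like protein (-0.18, SE 0.08, adjusted p = 0.740), and Ppp5c, a phosphatase of glucocorticoid receptor complexes (-0.09, SE 0.04, adjusted p = 0.748), had an unadjusted p below 0.05, as did Fkbp5, making 3 of 32 (9.38%). Over all genes tested the share was 6.59%. Without surrogate variables Fkbpl was at -0.10 and Ppp5c at -0.02, and 1 member, Fkbp5, had an unadjusted p below 0.05. Of 17 genes listed as clients or autophagy partners of FKBP51, among them Akt kinases, Phlpp phosphatases and the DNA methyltransferase Dnmt1, 0 passed and 0 had an unadjusted p below 0.05, with log2 fold changes between -0.07 and 0.13.

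Neither corticosteroid receptor passed. Nr3c1 had 70.6, 87.1 and 99.5 CPM in Fkbp5lox/lox ELS mice and 75.0, 83.8 and 97.5 CPM in Fkbp5Nex ELS mice (log2 fold change 0.03, SE 0.07, adjusted p = 0.957), and its sign turned in some alternative fits. Nr3c2 had 181, 189 and 242 CPM against 190, 196 and 217 CPM (-0.08, SE 0.06, adjusted p = 0.831), a value that was -0.0146 without surrogate variables. Over the 12 genes of this group, which includes the CRH system and receptor coregulators, 0 had an unadjusted p below 0.05, and Crh, the hypothalamic releasing hormone that some hippocampal interneurons also make, had the highest value (0.40, SE 0.21), which was 0.68 with an unadjusted p of 0.0151 without surrogate variables. Of 22 genes commonly induced by glucocorticoids, 21 were tested and 0 passed. The median was 0.03, and 14.3% had an unadjusted p below 0.05, against 6.59% of all genes tested, with 2 members in the positive direction and 1 in the negative. These were Pdk4, a kinase that restrains pyruvate oxidation (0.33, SE 0.13), Mt2, a metallothionein (0.23, SE 0.10), and Cebpd. Without surrogate variables Mt2 was at 0.15, and Cebpd alone had an unadjusted p below 0.05. Tsc22d3, which encodes the glucocorticoid-induced leucine zipper, had 44.8, 48.2 and 60.1 CPM against 40.9, 53.3 and 59.4 CPM (0.10, SE 0.08). Tcf4, the factor that the study went on to overexpress, had 491, 506 and 517 CPM against 478, 527 and 549 CPM (0.04, SE 0.04, adjusted p = 0.894).

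Markers of dentate granule cells, in which the driver does not act, tended to have lower values in Fkbp5Nex ELS mice, and no member passed. Of 14 markers tested, 11 had a negative log2 fold change and 6 (42.9%) an unadjusted p below 0.05, with a median of -0.26. Over all genes tested, 51.1% were negative and 6.59% had an unadjusted p below 0.05. Prox1, the homeobox factor of granule cell identity, had 64, 117 and 278 CPM against 48.7, 50.5 and 128 CPM (-0.31, SE 0.09). Dsp, a desmosomal protein, had 16.0, 36.3 and 83.6 CPM against 9.90, 15.0 and 19.8 CPM (-0.73, SE 0.20), with 5 of 6 Fkbp5Nex mice below every Fkbp5lox/lox mouse. Npnt, an extracellular matrix protein, had a log2 fold change of -0.42 (SE 0.11) and Fam163b one of -0.50 (SE 0.13). Adjusted p was 0.591 for all 4. The list score (the mean deviation in log2 CPM from each gene's mean) was -0.52, 0.35 and 1.57 in Fkbp5lox/lox ELS mice and -0.82, -0.47 and 0.46 in Fkbp5Nex ELS mice, so the groups overlapped. Mouse 8 had the highest score of the Fkbp5lox/lox group and mouse 60 that of the Fkbp5Nex group. Mouse 8 also had the lowest CA1 score, -1.60, while the other 11 mice lay between -0.48 and 0.72. Without surrogate variables the dentate median was -0.75, all 14 values were negative and 8 had an unadjusted p below 0.05, with Prox1 at -0.96, Dsp at -1.48, Npnt at -1.15 and Fam163b at -0.76. In that fit 725 of all 16209 genes had an unadjusted p below 0.05. How much granule cell layer each punch held was not tested.

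**Figure D3:**
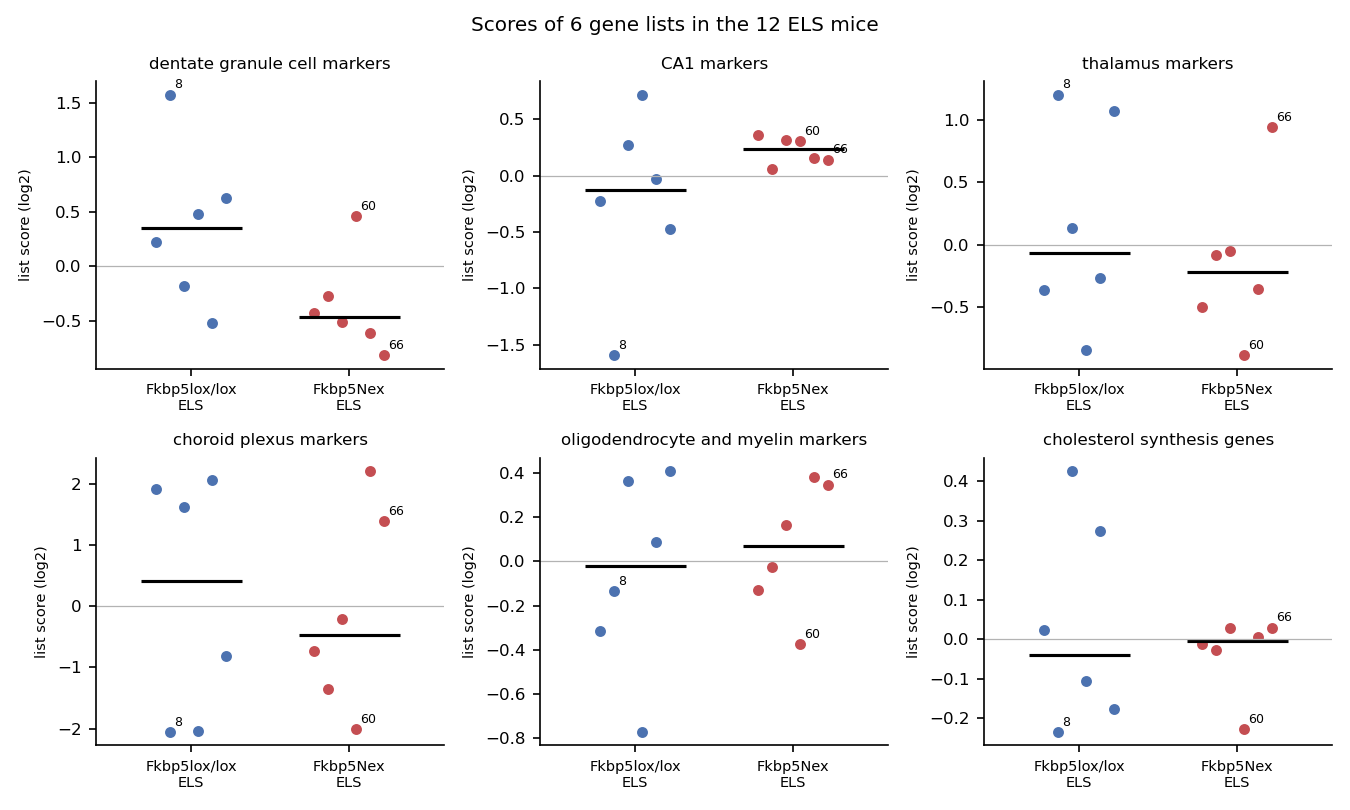
Scores of 6 gene lists in the 12 ELS mice (vertical axis, mean log2 deviation over the list; each point is a mouse, the bar is the median of 6 mice, and mice 8, 60 and 66 are numbered). The dentate score runs from -0.52 to 1.57 in Fkbp5lox/lox mice and from -0.82 to 0.46 in Fkbp5Nex mice, and the groups overlap in every list shown.

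The fitted values of genes from tissue beside the hippocampus depended on the model. Of 19 choroid plexus markers 10 were tested, all with a negative log2 fold change and a median of -0.74. An unadjusted p below 0.05 was found for 7 of them, against 6.59% of all genes tested. In the fit without surrogate variables all 10 were negative, with a median of -0.35, and 0 had an unadjusted p below 0.05. Ttr, the thyroid hormone carrier made by choroid plexus, had 0.592, 469 and 1375 CPM in Fkbp5lox/lox ELS mice and 3.42, 115 and 1355 CPM in Fkbp5Nex ELS mice. Its log2 fold change was -2.31 (SE 0.60, adjusted p = 0.591), while the difference of mean log2 CPM without covariates was 0.03 (exact permutation p = 0.989). Enpp2 (-0.58, SE 0.21), Sostdc1 (-0.66, SE 0.24), Cldn2 (-0.73, SE 0.29) and Kl (-0.50, SE 0.23) gave values of -0.28, -0.06, -0.19 and -0.43 without covariates. For the 17 thalamus markers tested the sign itself turned. The median was 0.16 with surrogate variables, with 14 positive, and -0.36 without them, with 0 positive. The list includes Tcf7l2, Zic1, Zic4, Slc17a6 and Foxp2, which the paper singled out in a group of co-expressed genes found in its hippocampal sequencing data. It is therefore not a marker set independent of these data. Tcf7l2, a thalamic transcription factor, went from 0.50 (SE 0.18) to -0.36, and Slc17a6, the vesicular glutamate transporter of thalamic neurons, from 0.55 (SE 0.33) to -0.42. Thalamic scores were highest in mice 8 and 78 of the Fkbp5lox/lox group and in mouse 66 of the Fkbp5Nex group. The 8 CA1 markers had a median of 0.05, or 0.36 without surrogate variables, and Ndst4, a heparan sulphate sulphotransferase, was the 1 member with an unadjusted p below 0.05 (-0.58, SE 0.16).

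In glial and metabolic gene groups most members had small positive values. Of 21 oligodendrocyte and myelin markers 19 were positive, with a median of 0.18 and with Mog, a myelin surface protein, the 1 member with an unadjusted p below 0.05 (0.26, SE 0.11). Without surrogate variables the median was 0.07 and Mog was at 0.16. Microglia (13 of 15 positive, median 0.10, or 0.03 without surrogate variables) and astrocyte markers (9 of 12 positive, median 0.10, or 0.05) were also mostly positive, and Mlc1, an astrocyte membrane protein, had a value of 0.22 (SE 0.07). Cytosolic ribosomal protein genes were positive in 67 of 81 cases (median 0.06, 6 with an unadjusted p below 0.05), and without surrogate variables in 45 of 81 (median 0.01, 1 with an unadjusted p below 0.05). Positive values were found for nuclear genes of oxidative phosphorylation in 56 of 81 (median 0.03, 9 positive and 1 negative with an unadjusted p below 0.05, against 0 without surrogate variables) and mitochondrially encoded genes in 12 of 13 (median 0.07, 0 with an unadjusted p below 0.05). Over all genes tested, 48.9% were positive and 6.59% had an unadjusted p below 0.05. In none of these groups did a gene pass the FDR, and the scores of both genotypes overlapped in each.

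Genes of cholesterol synthesis and uptake were lower in sign in 18 of 19 cases, against 51.1% of all genes tested. An unadjusted p below 0.05 was found for 5 (26.3%), against 6.59% of all genes tested. The median was -0.14 against 0.10 in control mice. Fdps, which makes farnesyl diphosphate, had 1.03, 1.36 and 2.45 CPM in Fkbp5lox/lox ELS mice and 0.710, 0.922 and 1.39 CPM in Fkbp5Nex ELS mice (-0.92, SE 0.28, adjusted p = 0.596), from 14 to 53 reads per mouse. Dhcr7 (-0.20, SE 0.06), the last step to cholesterol, Sqle (-0.23, SE 0.08), the epoxidase of squalene, and Stard4 (-0.24, SE 0.07), a sterol carrier, had medians that were nearly equal between groups, such as 73.5 CPM against 73.9 CPM for Sqle. Without surrogate variables the median of the list was -0.06, 15 members were negative and 1 had an unadjusted p below 0.05, with Stard4 and Sqle at -0.13. The scores of the 6 Fkbp5Nex ELS mice (-0.23 to 0.03) lay within the range of the Fkbp5lox/lox ELS mice (-0.24 to 0.43).

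Genes of neuronal signalling showed no call. The counts below stand beside 51.1% negative values and 6.59% with an unadjusted p below 0.05 over all genes tested. Of 24 glutamate receptor genes 19 were negative, with a median of -0.03, and 3 had an unadjusted p below 0.05. Without surrogate variables 12 were negative and 12 positive. Grm2, a presynaptic metabotropic receptor that granule cells express, had 20.2, 31.3 and 63.6 CPM against 10.0, 15.6 and 38.8 CPM (-0.57, SE 0.17, adjusted p = 0.591; -0.91 without surrogate variables). Grik2 (-0.12, SE 0.05; -0.24 without surrogate variables), a kainate receptor subunit, and Grm7 (-0.11, SE 0.04), a presynaptic receptor, were the others. Of 14 GABA receptor genes tested, 11 were positive (median 0.03). Of 18 immediate early genes, transcribed within minutes of neuronal activity, 15 were positive with a median of 0.07 (13 and 0.20 without surrogate variables) and 0 had an unadjusted p below 0.05. Potassium channel subunits (76 tested, median 0.03) and calcium, sodium and HCN channel subunits (39 tested, median 0.00) were centred near 0. In the latter group Cacna1g, a T-type calcium channel (-0.42, SE 0.13), and Scn4b, a sodium channel beta subunit (0.44, SE 0.15), had the smallest p. Their values were -0.13 and 0.13 without surrogate variables, -0.15 for Cacna1g without mouse 72 and 0.22 for Scn4b without mouse 8, both of the Fkbp5lox/lox group. Clustered protocadherins, which give neurons their surface identity, had 5 positive and 1 negative members with an unadjusted p below 0.05 among 52 tested, led by Pcdhb2 (0.53, SE 0.16). Of 16 neuropeptide genes tested, Gal, which encodes galanin, had an unadjusted p below 0.05 (-1.28, SE 0.42), at 0.293, 1.2 and 1.75 CPM against 0, 0.191 and 1.07 CPM. Neither ELS group had 10 counts in every mouse, so Gal met the filter only through control mice. It was not tested in the fits of the 12 ELS mice alone. Without surrogate variables the median was of the other sign for the calcium, sodium and HCN channels (-0.02) and the neuropeptides (-0.04 with them, 0.04 without). The remaining lists had medians of 0.07 (endothelial, mural and meningeal markers), 0.06 (interneuron markers, 0.15 without surrogate variables), 0.05 (circadian clock genes), -0.03 (ventral hippocampus markers) and -0.04 (immature neuron markers), and 0 members passed. Of these, the clock, ventral and immature neuron medians turned sign without surrogate variables, to -0.02, 0.16 and 0.02.

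**Figure D4:**
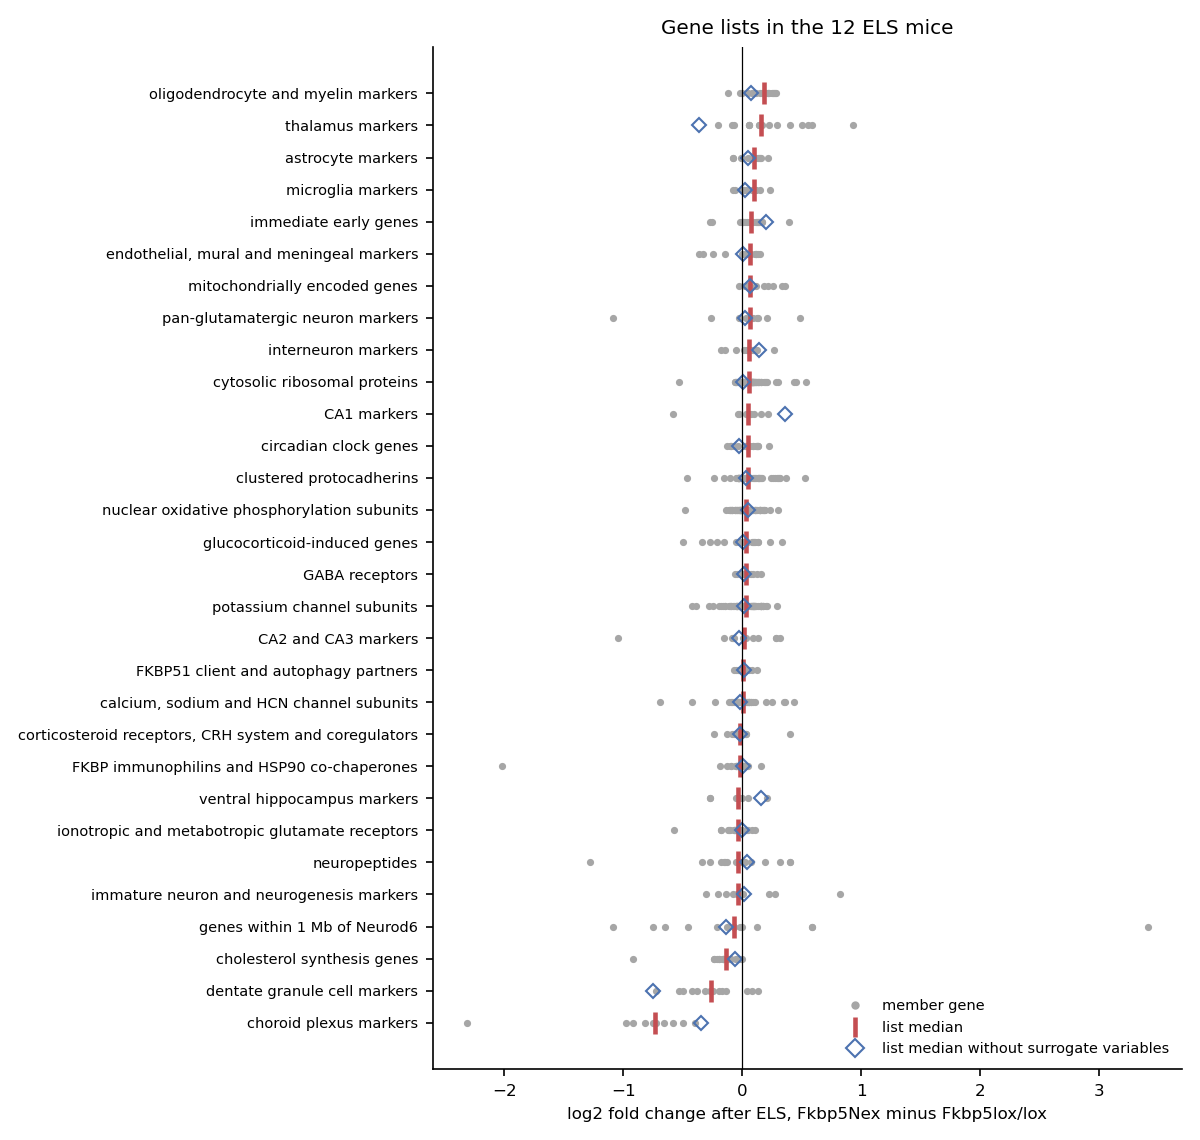
Log2 fold change after ELS of each tested member of 30 gene lists (grey points, horizontal axis), with the list median (red bar) and the median of a fit without surrogate variables (blue diamond). The red and blue marks lie on opposite sides of 0 for the thalamus markers (0.16 and -0.36), and for the dentate markers both are negative (-0.26 and -0.75).

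The deletion effect was next set beside that in mice reared under control conditions, a comparison that shares no mice with the one after ELS but was fitted in the same model. Fkbp5 had 47.7, 52.0 and 63.4 CPM in Fkbp5lox/lox control mice and 8.71, 12.5 and 26.5 CPM in Fkbp5Nex control mice (log2 fold change -2.06, SE 0.14, adjusted p = 8.20e-09). Gm3279 had a log2 fold change of 2.32 (SE 0.29, adjusted p = 2.49e-04). The difference between rearing conditions was 0.04 (SE 0.20, adjusted p = 0.999) for Fkbp5 and 1.09 (SE 0.46, unadjusted p = 0.0277, adjusted p = 0.999) for Gm3279, neither of which passed. Under control rearing 8 genes (0.0494%) passed, 1 higher (0.00617%) and 7 lower (0.0432%). Besides Fkbp5 and Gm3279 these were the dentate markers Npnt, Prox1 and Dsp, the uridine phosphorylase Upp1, Ttr and the copper transporter Slc31a1.

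The 6 genes called under control rearing and not after ELS had the same sign in both. For Npnt, Dsp, Prox1 and Upp1, which value was further from 0 depended on the surrogate variables. For Ttr and Slc31a1 the value under control rearing was further from 0 with and without surrogate variables. With them, the values were smaller after ELS. The genes were chosen by passing under control rearing and not after ELS in this same fit. That choice favours such an order, so the order adds no support for a difference between conditions. Npnt was -0.96 (SE 0.11) under control rearing and -0.42 (SE 0.11) after ELS, Dsp -1.42 (SE 0.20) and -0.73 (SE 0.20), Prox1 -0.67 (SE 0.09) and -0.31 (SE 0.09), Upp1 -1.49 (SE 0.21) and -0.79 (SE 0.23), Ttr -3.82 (SE 0.60) and -2.31 (SE 0.60), and Slc31a1 -0.35 (SE 0.06) and -0.18 (SE 0.06). None of these differences between conditions passed (adjusted p = 0.999 for each). Without surrogate variables Npnt was -0.72 (SE 0.38) under control rearing and -1.15 (SE 0.38) after ELS, Dsp -1.35 (SE 0.39) and -1.48 (SE 0.38), Prox1 -0.50 (SE 0.38) and -0.96 (SE 0.38), and Upp1 -1.32 (SE 0.33) and -1.47 (SE 0.33). In that fit Ttr was -0.97 (SE 1.58) and -0.70 (SE 1.58), and Slc31a1 -0.26 (SE 0.20) and -0.13 (SE 0.20). Of the 8 calls, 2 remained without surrogate variables, Fkbp5 and Gm3279. Neurod6 was -0.72 (SE 0.22) under control rearing and -1.08 after ELS. Iyd was -0.24 (SE 0.20) and -1.04, with a difference of -0.80 (SE 0.29, unadjusted p = 0.0105, adjusted p = 0.999). Iyd was named for its small p after ELS, and its value after ELS enters this difference, so the unadjusted p adds no support.

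**Figure D5:**
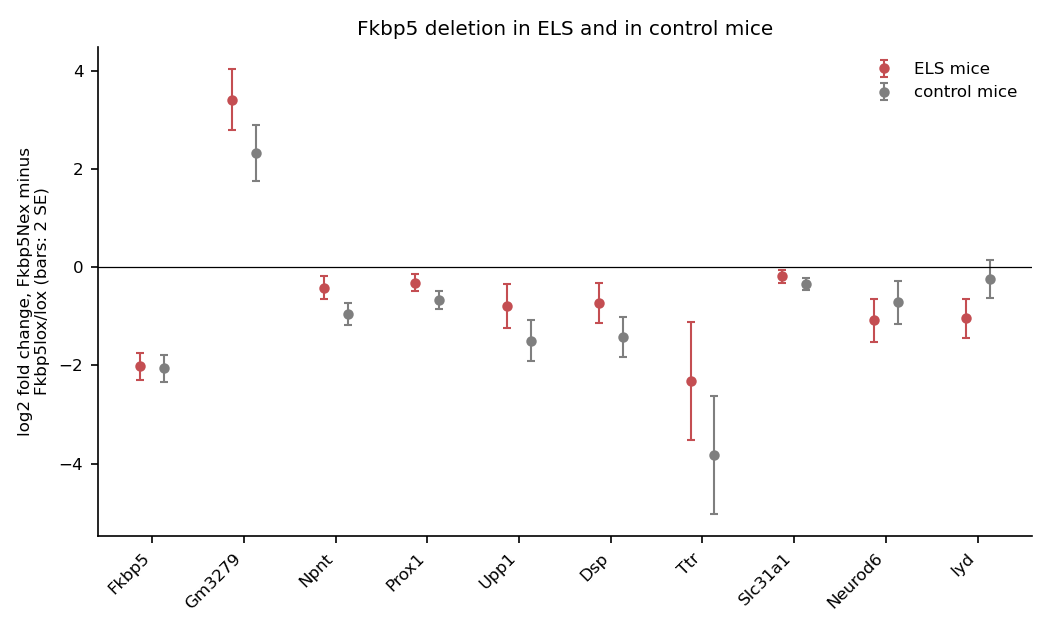
Log2 fold change of Fkbp5Nex against Fkbp5lox/lox mice in ELS mice (red) and in control mice (grey) for the 8 genes called in either condition and for Neurod6 and Iyd; bars span 2 standard errors on either side. Fkbp5 is at -2.02 and -2.06. In this fit Npnt, Dsp and Ttr are further from 0 in control mice, an order that turns for Npnt and Dsp without surrogate variables, and no difference between conditions passed the FDR. The genes called only in control mice were chosen by that result in this same fit, which favours such an order.

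No gene had a deletion effect that differed between ELS and control rearing at an FDR of 0.02. The count was 0 of 16209 in edgeR's quasi-likelihood test, where 651 genes (4.02%) had an unadjusted p below 0.05, and 0 in DESeq2's Wald test, where 535 did. The 5 genes with the smallest p had adjusted p = 0.999. Of these, the noncoding RNA 1110002J07Rik had a log2 fold change of -0.44 (SE 0.22) after ELS and 0.99 (SE 0.20) under control rearing, from 9 to 18 reads per ELS mouse. Mfap1b, a copy of a spliceosome gene with a near-identical paralogue, had -0.18 (SE 0.11) and 0.52 (SE 0.10), Scml4 -0.35 (SE 0.13) and 0.46 (SE 0.13), Dbndd2 0.13 (SE 0.04) and -0.10 (SE 0.04), and Upf3a, a factor of nonsense-mediated decay, -0.17 (SE 0.05) and 0.09 (SE 0.05). Without surrogate variables the value after ELS was -0.26 for 1110002J07Rik and -0.27 for Mfap1b, and Dbndd2 was at -0.03 in both conditions. Among the cholesterol genes the differences were -1.21 (SE 0.41) for Fdps, -0.30 (SE 0.09) for Dhcr7, -0.34 (SE 0.11) for Stard4 and -0.32 (SE 0.11) for Sqle, with adjusted p = 0.999 for each. These genes were named for their small p after ELS, and their values after ELS enter the differences, so the size of the differences adds no support.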

How the data were processed

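Hippocampal bulk mRNA of 24 female mice in 4 groups of 6 had been sequenced as paired ends. Per the study's methods, the authors removed adaptor, poly-N and low-quality reads, aligned with HISAT2 2.0.5 and deposited raw counts per gene from featureCounts 1.5.0-p3. The genome build and the strand setting are not given in the sources used here, so values of genes that overlap another are uncertain, among them Fkbp5, Tcf4, Chst15, Cebpd, Slc16a10, Glt8d2, Rreb1, Bmp5, Snrpert, Scml4, Dbndd2, Dsp, Npnt, Prox1, Enpp2, Slc31a1, Mt2, Nr3c2, Tcf7l2, Slc17a6, Fdps, Grm2, Grik2, Grm7, Mog, Slc17a7 and Pcdhb2. Gene positions were looked up by Ensembl identifier in GENCODE vM21, which is on GRCm38 (16152 of 16209 tested genes found).

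A gene was tested where each mouse of at least 1 group had 10 counts or more (16209 of 46983). Counts were scaled by TMM and fitted with edgeR 4.0.16's quasi-likelihood test (R 4.3.3), with 4 group means plus 5 surrogate variables estimated by svaseq (sva 3.50.0), of whose variance the 4 groups explained 2.97% to 24.0% and genotype within the ELS mice 8.11%, 17.2%, 19.2%, 0.0361% and 13.4%. Calls used Benjamini-Hochberg adjustment at an FDR of 0.02. Standard errors were derived from the fold change and its F statistic. Single genes were also compared by exact 2-sided permutation tests over 924 divisions of the 12 ELS mice (Python 3.11.15), on log2 CPM with a prior count of 2. Total counts of 18347283 to 26555623 per ELS mouse set the precision, and genes near the filter carry large counting error. No sequencing batch is labelled. DESeq2 1.42.0 was an alternative, as were the settings given under the dependence on processing. Gene members and lists were chosen with earlier results of these data known, and no list was tested as a set. The named genes are Fkbp5, Neurod6 and Tcf4, all genes past the FDR, the 10 with the smallest p in each direction, the 5 with the smallest p for the interaction and up to 4 members of each list by p, with the first 2 of marker lists. Hk2, Alg13, Sstr4, 1700126G02Rik, Nr3c1, Tsc22d3, Slc17a6, Mturn, 6430584L05Rik, Pde1c, Mindy4 and the genes called only under control rearing are named besides, as a choice made with their values in view.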

Additional observations from a re-analysis of the deposited data

Results flagged for a closer look

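In groups of 6 ELS mice, a value was taken to stand apart when its gap to the nearest other mouse exceeded 0.625 of the group's range, and chance alone sets a mouse apart in about 1 in 20 groups, while 19 of 208 groups checked held one. Mouse 8 (Fkbp5lox/lox) stood apart as highest for Prox1 (278 CPM, others 64 to 136), Fam163b (197 CPM, others 80.3 to 117), Cebpd (19.7 CPM, others 7.96 to 12.2), Grik2 (136 CPM, others 88.5 to 106) and Gm2004 (4.26 CPM, others 0.270 to 1.75), and as lowest for the interneuron score (-0.31, others -0.08 to 0.03). Mouse 60 (Fkbp5Nex) stood apart as highest for Prox1 (128 CPM, others 48.7 to 73.9), Fam163b (115 CPM, others 44.9 to 69.4), Npnt (23.7 CPM, others 11.2 to 12.7) and Cebpd (10.8 CPM, others 5.60 to 6.52), and as lowest for the cholesterol synthesis score (-0.23, others -0.03 to 0.03). With both mice left out together, a choice made after seeing the data, 3 genes were called after ELS in edgeR's quasi-likelihood test, Fkbp5, Gm3279 and Gm2004.

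Other mice stood apart for fewer values. Slc17a6 was highest in mouse 66 of the Fkbp5Nex group (37.6 CPM, others 2.45 to 13.7). In mouse 58, Nr3c2 (217 CPM, others 190 to 199) and 1700126G02Rik (2.15 CPM, others 1.61 to 1.75) were highest, and Grm7 was lowest in mouse 68 (59.3 CPM, others 66.9 to 69.0). In mouse 78, Tsc22d3 (60.1 CPM, others 44.8 to 49.6) and the score of FKBP51 client and autophagy partners (0.0112, others -0.0157 to -0.00687) were highest. In mouse 62, the score of glucocorticoid-induced genes was highest (0.17, others -0.08 to -0.02) and that of glutamate receptors lowest (-0.14, others -0.05 to 0.01).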

How the results depend on the processing

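Fkbp5 and Gm3279 were called after ELS in each of the 9 other settings and with each of the 24 mice left out in turn (then 2 genes each time). The settings were no surrogate variables, only the 12 mice compared with and without surrogate variables, no filter on low counts, the filterByExpr filter, size factors of DESeq2 in place of TMM, Wald tests of DESeq2 with and without surrogate variables, and mice 8 and 60 left out together, the last 2 settings chosen after seeing the data. An FDR of 0.05 also gave 2 genes. The Wald test of DESeq2 called 4, adding Iyd and Gm2004, and 3 without surrogate variables, adding Iyd. When a mouse was left out, the fold change of Fkbp5 lay between -2.18 and -1.94 and that of Gm3279 between 3.26 and 3.70, and the covariate-free difference of Fkbp5 between -2.31 and -2.07. No gene was called for the interaction in any setting run, where 331 to 1585 genes had an unadjusted p below 0.05.

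Under control rearing the 8 calls became 2 without surrogate variables, 4 in the 12 control mice with surrogate variables and 2 without, 53 in DESeq2's Wald test and 2 in that test without surrogate variables, 3 with mice 8 and 60 left out together and 29 at an FDR of 0.05. With a mouse left out the count was between 1 and 14. It was 1 without Nex_control mouse 12, 4 without Nex_control mouse 52, 14 without Nex_control mouse 54 and 4 without lox_ELS mouse 8. The cause was not tested.

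Of the named genes refitted in each setting, 6 changed sign in at least 1 of them. Without surrogate variables, in the 12 mice without them and in DESeq2 without them, the fold change after ELS was -0.36, -0.36 and -0.35 for Tcf7l2, -0.42, -0.43 and -0.41 for Slc17a6, -0.0265, -0.0267 and -0.0240 for Dbndd2, -0.0163, -0.0161 and -0.0142 for Nr3c1 and 0.0236, 0.0238 and 0.0257 for Slc17a7. With a mouse left out, the range was -0.13 to 0.81 for Slc17a6, -0.0323 to 0.0585 for Nr3c1, -0.114 to 0.0192 for Slc17a7 and -0.142 to 0.00365 for Nr3c2. No mouse lay beyond 2.5 SD on the first principal component, so that rule left none out. No paired analysis was possible because no mouse number occurs in more than 1 group. The depth limits low genes most, such as Gm3279 with 3 to 8 reads per Fkbp5lox/lox mouse.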
